A study of Mus musculus with 8 samples.

Results

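The same deletion, reaching from Snrpn into Ube3a on mouse chromosome 7, was compared after inheritance from the mother and after inheritance from the father. The comparison uses 4 of the 8 arrays of the series, chosen by their titles: 1 cerebral cortex sample with the deletion on the maternal chromosome (genotype del s-u/+), 1 with it on the paternal chromosome (del +/s-u), and the 2 wild types, WT1 and WT2, whose difference serves as the measure of spread. All 4 samples are total RNA (15 µg per array, Cy5-labelled) from C57BL/6 mice at postnatal day 0. The series describes a wild-type littermate for each deletion mutant, but no label ties WT1 or WT2 to a litter, and how many animals stand behind a sample is not stated. Each deletion genotype has 1 sample, so every test below assumes that the deletion samples vary as the wild types do. Nothing says whether the wild types come from separate animals, and the p-values reflect no more than the spread within this set of samples, which may be technical. Signal was read from 53834 distinct probes of a custom tiling array, 50496 of them on both strands of positions 65890585 to 67700765 of chromosome 7 (mm9) and 3338 elsewhere in the genome. The tiled span was divided into 356 bins of 10 kb and 1 strand with at least 3 tested probes, of which 57 on each strand lie inside the deletion. Cortical cell type markers could not be checked, because the files name no gene for a probe.

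Ube3a encodes a ubiquitin ligase, and in neurons its messenger RNA is made mainly from the chromosome inherited from the mother. The paternal copy is opposed by Ube3a-ATS, the antisense end of a very long RNA that starts around Snrpn, a gene that is active on the paternal chromosome only. Between both genes this long RNA hosts clusters of small nucleolar RNAs, and in the reference gene order the snoRNA copies, Ipw and Snord116 lie between Ube3a and Snrpn. Ube3a is transcribed from the plus strand and the long RNA from the minus strand, so strand and parental origin can be read together. Where a chromosome carries the deletion, RNA of the deleted interval can come only from the other chromosome: the maternal deletion leaves the paternal copy and the paternal deletion leaves the maternal copy.

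The sequences upstream of the 2 start sites are shown because the strands are read from them in opposite directions, Ube3a towards Snrpn and Snrpn towards Ube3a. They are the 250 bases before the RefSeq start of each gene, taken from GRCm38.p6, a later build than the mm9 positions of the probes, so the coordinates are not to be mixed. Capitals mark CG, the dinucleotide that DNA methylation acts on and that reads the same on both strands. Upstream of Ube3a (chr7:59228500-59228749, plus strand) CG occurs 24 times, a number reached by 12.0% of the 32851 RefSeq promoter windows of this length. Upstream of the Snrpn start that it shares with Snurf (chr7:60005200-60005449, minus strand) it occurs 3 times, a number reached by 71.0% of the windows. The G and C content is 70.0% and 36.8%.
Ube3a: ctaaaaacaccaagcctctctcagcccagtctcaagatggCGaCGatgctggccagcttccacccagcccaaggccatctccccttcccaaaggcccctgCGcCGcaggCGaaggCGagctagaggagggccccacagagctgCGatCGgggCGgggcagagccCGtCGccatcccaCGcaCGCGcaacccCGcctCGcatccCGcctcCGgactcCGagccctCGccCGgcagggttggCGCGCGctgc
Snrpn: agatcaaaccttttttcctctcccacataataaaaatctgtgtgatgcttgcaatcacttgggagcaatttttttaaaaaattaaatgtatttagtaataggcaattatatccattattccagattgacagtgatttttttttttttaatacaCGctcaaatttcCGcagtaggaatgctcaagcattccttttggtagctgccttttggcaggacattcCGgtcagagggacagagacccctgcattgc

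Values are mean log2 signals of probes, set against the level that 75% of an array's own outside-locus probes do not exceed. A value of 1 is thus a signal 2-fold above that level on the corrected scale. The arrays had a median red intensity of 161 (maternal deletion), 98 (paternal deletion), 134.5 (WT1) and 125 (WT2) over a local background of 36 to 38, and the spots well above background made up 81.08% to 88.44% of an array. All 4 arrays lie on 1 slide, and their number limits the precision. Over the 2394 tested probes outside the locus the median difference between the maternal and the paternal deletion was -0.05, and 1.88% of them differed by at least 2-fold, against 0.543% between the wild types. In the lower flank of the tiled span (65890585 to 66383000), beyond Ube3a, both genotypes differed by -0.05 on the plus and by -0.03 on the minus strand (SE 0.074 each; adjusted p = 0.625 and 0.844, limma). None of its 49 bins on either strand was called in limma, and 3 minus-strand bins and 1 plus-strand bin had an unadjusted p under 0.05. A scale on all probes, in place of those outside the locus, moves every difference by -1.22, since that percentile also takes in the deleted interval. Under it and under quantile normalization the signs of the small differences turn, as given with each.

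The ends of the deletion were read from steps in the signal. The difference between the maternal and the paternal deletion changed between the probes at 66526853 and 66526901 and between those at 67147632 and 67147710, on both strands alike. Both deletions stepped away from wild type between the same probes on the plus strand. On the minus strand the paternal deletion did so at the upper border, while its lower step lay between 66526930 and 66526935, just inside. Between the borders used lie 620.7 kb. The deletion leaves the side of Ube3a that holds its start, called the 5′ part here (66483001 to 66526900), and takes the 3′ part (66526901 to 66567000). Between the 3′ part and Snrpn, the deleted interval was cut along the steps of the wild-type minus-strand signal into stretches A to E: A is nearest Ube3a (66570001 to 66600000), followed by B (66600001 to 66870000), C (66870001 to 66930000), D (66930001 to 67060000) and E (67060001 to 67140000), nearest Snrpn. All borders are read from the signal and not from a gene annotation. The array has no probe in the 4 bins from 66960001 to 67000000.

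**Figure D1:**
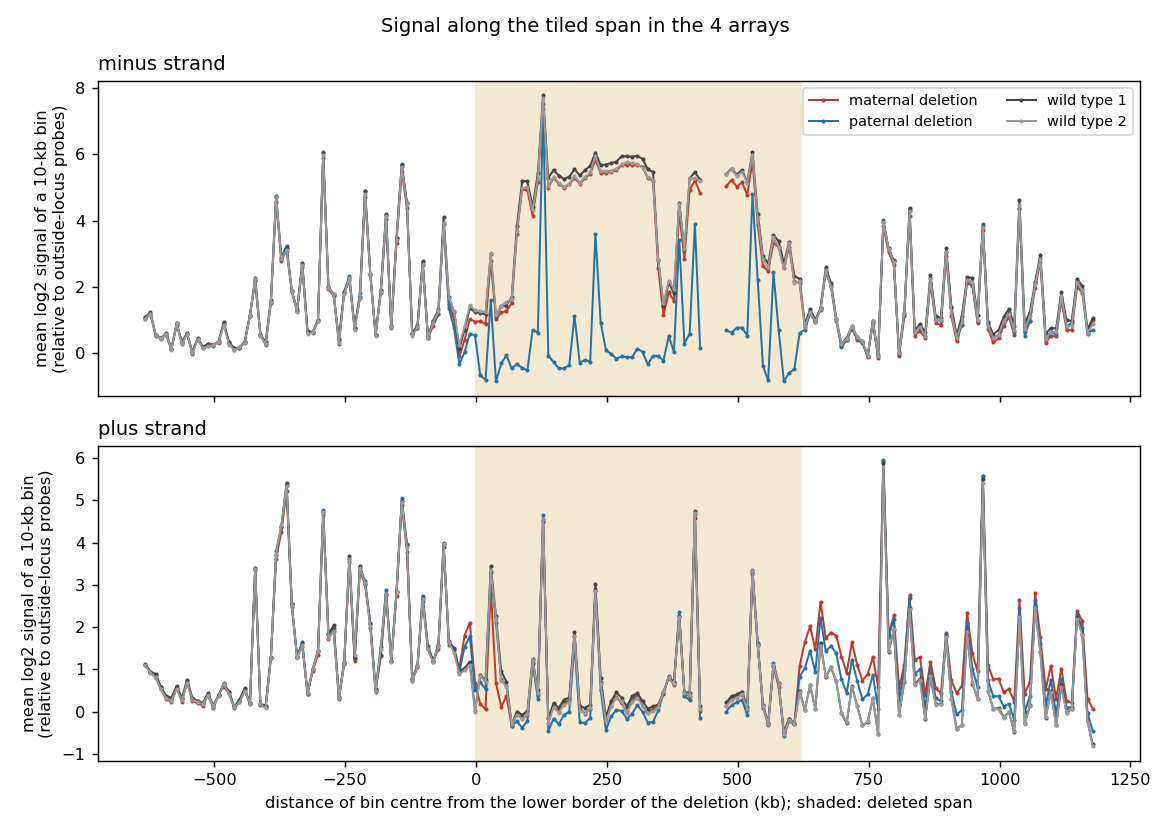
Mean log2 signal of each 10-kb bin (y axis, relative to the scaling level of the array) against the distance of its centre from the lower border of the deletion in kb (x axis), on the minus strand (upper panel) and plus strand (lower panel), 1 line per array, with the deleted interval shaded and a gap where the array has no probes. On the minus strand the maternal deletion follows both wild types through the shaded interval while the paternal deletion lies far below them, except at a few bins; on the plus strand the deletions part from the wild types past the right-hand border.

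Minus-strand RNA of the deleted interval was kept when the maternal copy was deleted and fell when the paternal copy was deleted. It was higher in the maternal deletion than in the paternal deletion in all 6 minus-strand regions of the interval, by 1.62 to 4.92 on the log2 scale, and in all 57 bins, of which 56 were called. Over all 356 bins of the span 29.2% were called higher in the maternal deletion and 1.4% lower (limma, Benjamini-Hochberg adjusted p under 0.05), and of the 22 regions 59.1% were called in either direction. In bulk tissue, fewer cells making an RNA and less RNA in each cell cannot be told apart.

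The largest difference between the deletions lay in stretch B, a 270-kb stretch of the antisense long RNA. Its minus strand read 5.28 in the maternal deletion, 0.36 in the paternal deletion, 5.54 in WT1 and 5.34 in WT2. The maternal deletion thus lay just under both wild types and the paternal deletion far below all 3. The difference between the deletions was 4.92 (SE 0.074), a 30.3-fold difference, against 0.20 between the wild types (adjusted p = 1.55e-25 in limma). It ranged from 2.99 in the series matrix to 6.19 with the local background subtracted. Of its 2510 tested probes, 90.96% were at least 2-fold higher in the maternal deletion and none was at least 2-fold lower. The 5 bins of the interval with the largest differences all lay in stretch B and differed by 5.67 to 5.80. The largest was the bin from 66810001 to 66820000, with 5.69 in the maternal deletion, -0.11 in the paternal deletion, 5.94 in WT1 and 5.76 in WT2 (adjusted p = 5.64e-05 in limma).

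Stretch D, the other bright stretch, read 5.10 in the maternal and 1.36 in the paternal deletion, with 5.44 and 5.40 in the wild types. Its difference of 3.74 (adjusted p = 3.15e-23) is 13.3-fold. Stretch E, at the Snrpn end where the long RNA begins, read 2.88 and 0.10, with 3.09 and 2.97 in the wild types, a difference of 2.78. Stretch C read 2.31 and 0.55, with 2.58 and 2.62, a difference of 1.76. The size of these differences depended on the setting, from 2.52 to 4.52 in stretch D, 1.56 to 5.31 in E and 0.55 to 3.84 in C, lowest with a scale on all probes and highest with the local background subtracted. In each of these stretches the maternal deletion was slightly below both wild types and the paternal deletion was the lowest of the 4 arrays.

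Ube3a-ATS proper, the minus strand opposite the deleted 3′ part of Ube3a, read 1.33 in the maternal deletion, -0.32 in the paternal deletion, 1.56 in WT1 and 1.60 in WT2. The difference was 1.65 (SE 0.074; adjusted p = 6.07e-16, limma), or 3.13-fold with the offset included. On the linear scale without it, the medians over probes were 2.77 in the maternal and 0.05 in the paternal deletion, as multiples of the outside-locus level. Stretch A, between Ube3a and the bright stretches, was close to it, with 1.34 and -0.28, 1.53 and 1.54 in the wild types, and a difference of 1.62. In the paternal deletion 51.69% of the probes opposite the 3′ part and 57.52% of those in stretch A were still well above background, against 100% in the maternal deletion and in both wild types. With the local background subtracted the difference opposite the 3′ part was 4.44 in place of 1.65, and with a scale on all probes it was 0.43. The direction was the same under all settings tried.

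**Figure D2:**
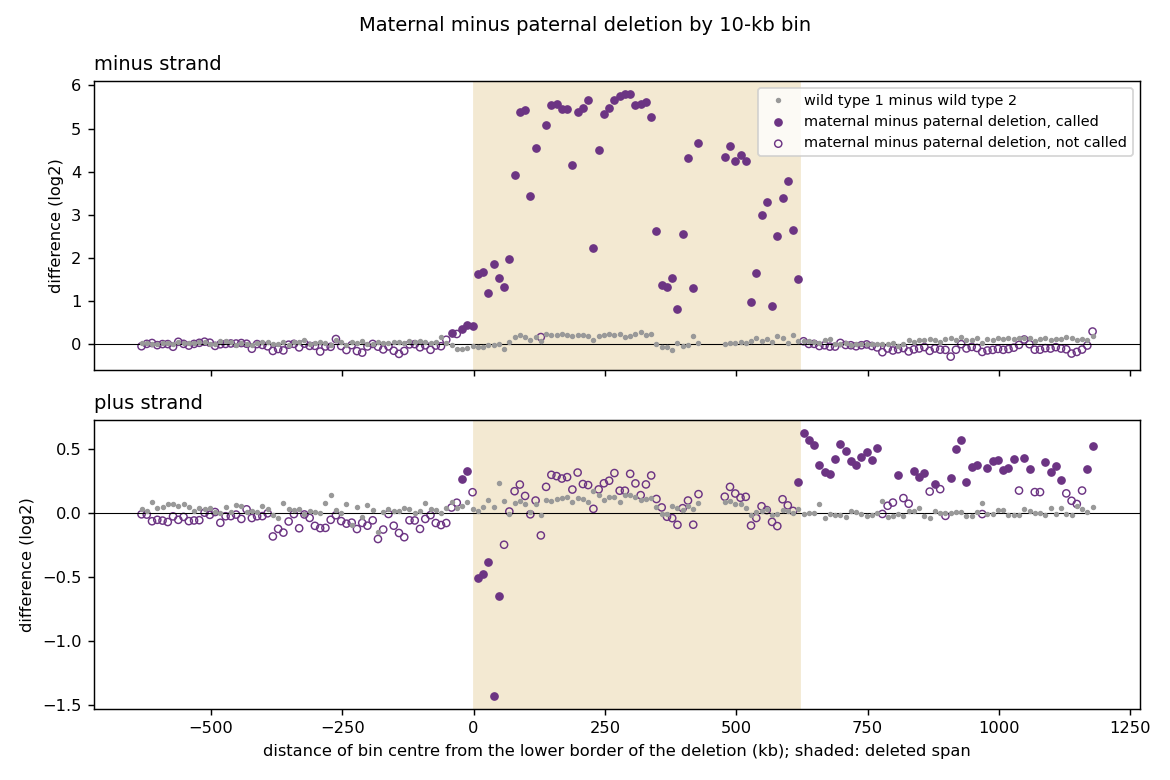
Difference in mean log2 signal between the maternal and the paternal deletion (y axis) for each 10-kb bin by distance of its centre from the lower border of the deletion in kb (x axis), minus strand above and plus strand below, filled where limma's adjusted p was under 0.05 and open otherwise, with the difference between both wild types as grey points. On the minus strand 56 of 57 bins of the shaded deleted interval are filled and above 0; on the plus strand the 5 filled bins below 0 lie at the Ube3a end and 53 of the 56 bins past the upper border lie above 0.

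The 1 minus-strand bin of the interval that was not called, from 66650001 to 66660000 in stretch B, read 7.53 in the maternal deletion, 7.36 in the paternal deletion, 7.78 in WT1 and 7.70 in WT2 (difference 0.17, adjusted p = 0.146). It was the brightest bin of the interval in all 4 arrays, and its plus strand was bright too, with 4.48, 4.65, 4.53 and 4.55. The next smallest differences on this strand were in the bins from 66910001 (0.83), 67090001 (0.88), 67050001 (0.98) and 66550001 (1.19). The bin from 67050001 to 67060000 read 5.78, 4.80, 6.06 and 5.98 on the minus strand, and 3.25, 3.35, 3.31 and 3.32 on the plus strand. In the bins from 66650001, 66910001, 67050001 and 67090001 the paternal deletion still read over 2 on the minus strand, and none of them was called on the plus strand. The bin from 66550001 was dimmer in the paternal deletion, at 1.61 against 2.79 in the maternal deletion. Whether the bright probes read RNA from other copies in the genome was not tested.

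Plus-strand RNA of Ube3a went the opposite way. The deleted 3′ part read 0.78 in the maternal deletion, 1.46 in the paternal deletion, 1.62 in WT1 and 1.59 in WT2. The maternal deletion was thus the lowest array, and the paternal deletion lay just under both wild types. The difference between the deletions was -0.68 (SE 0.074; adjusted p = 1.69e-08 in limma), 1.60-fold lower in the maternal deletion. Of 675 tested probes 25.63% were at least 2-fold lower in the maternal deletion and 1 probe was at least 2-fold higher. All 4 bins of the 3′ part were called lower, against 1.4% of all bins of the span.

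The loss was steepest at the end of the block. The bin from 66560001 to 66570000 read 0.66 in the maternal deletion, 2.09 in the paternal deletion, 2.27 in WT1 and 2.22 in WT2, a difference of -1.43. It was the largest plus-strand difference of the interval in either direction. The other bins of the 3′ part differed by -0.51, -0.48 and -0.38. In the bin from 66550001, which differed by -0.38 (adjusted p = 0.0294 in limma), the level was 2.93, 3.31, 3.45 and 3.34. Just beyond the block, the bin from 66570001 to 66580000 in stretch A read 0.11, 0.76, 0.96 and 0.72 and was the fifth bin called lower (difference -0.65, adjusted p = 0.0351 in limma), with 0.24 between the wild types. With the median over probes in place of their mean, the difference of the 3′ part was -0.52 and no longer called (adjusted p = 0.0545, limma; range over the settings 1.38e-16 to 0.348).

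Through the rest of the interval, where the antisense RNA is strong, the plus strand held little difference between the deletions. None of its 52 other bins was called in limma. At an unadjusted p under 0.05, 15 of the 57 plus-strand bins were higher and 7 lower, the 5 called bins included. The 5 largest differences in the positive direction were 0.29 to 0.32 and all lay in stretch B. As a region, the plus strand of stretch B read 0.47 in the maternal deletion, 0.27 in the paternal deletion, 0.56 in WT1 and 0.46 in WT2, a difference of 0.20 against 0.10 between the wild types (adjusted p = 0.0239, limma), and it turned to -1.02 with a scale on all probes and to -0.33 with quantile normalization. Of 18 settings tried for this region only 7 kept the call, 9 lost it and these 2 turned it, with adjusted p up to 0.953 in limma. Stretch A was lower in the maternal deletion on this strand, at 0.06 against 0.39, 0.51 and 0.39 (difference -0.33, adjusted p = 0.000424 in limma), a call lost with the median over probes (-0.56, adjusted p = 0.0545). Stretches C, D and E differed by 0.01, 0.09 and 0.01 and were not called, and they turned to -1.21, -1.12 and -1.21 with a scale on all probes.

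**Figure D3:**
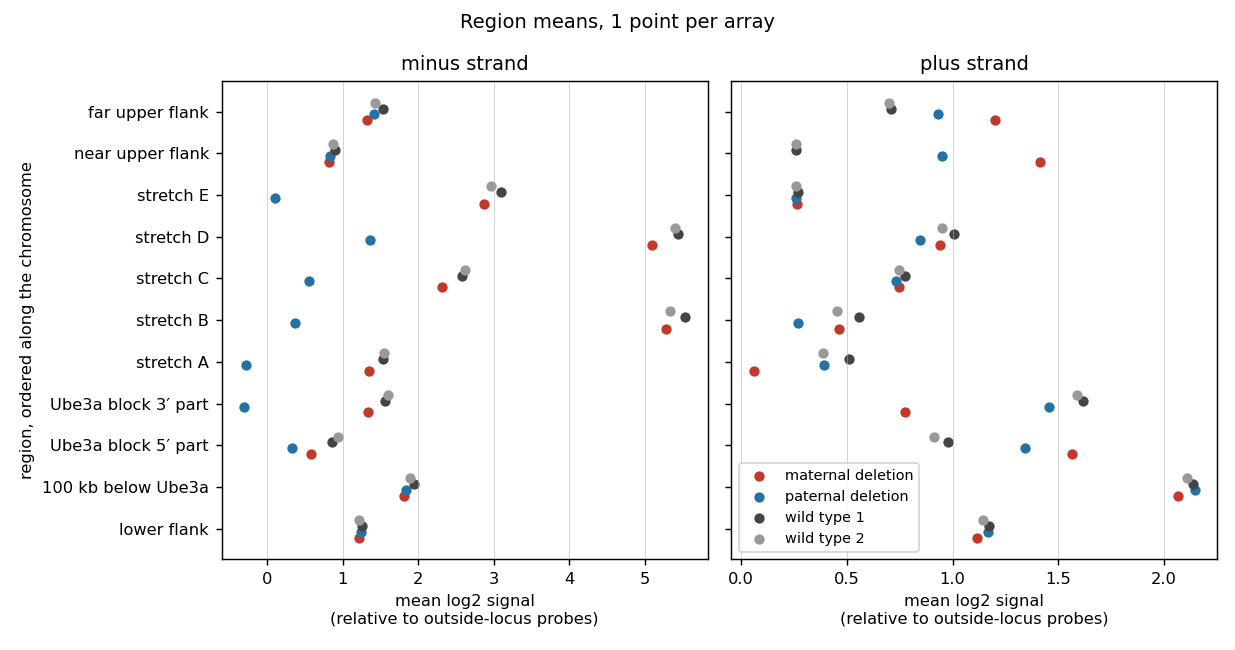
Mean log2 signal (x axis, relative to the scaling level of the array) of the 11 regions in order along the chromosome (y axis, lower flank at the bottom), minus strand left and plus strand right, 1 point per array. On the minus strand the paternal deletion stands alone to the left from the Ube3a 3′ part to stretch E; on the plus strand the maternal deletion is lowest in the 3′ part and stretch A and highest in the 5′ part and in both upper flanks.

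The origin of the RNA can be put as a share. Inside the interval, the background-subtracted signal of the maternal deletion (paternal copy) was divided by the sum of both deletions, and the sum was compared with wild type. A sum near 1 says that the signals left by both deletions add up to wild type. A sum near 2 says that the signal was the same whichever copy was missing, and the share is then near 50% by construction and tells nothing of origin.

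By the median over probes, the paternal share of the minus strand was 98.19% opposite the 3′ part of Ube3a, 96.3% in stretch A, 99.13% in stretch B, 93.87% in C, 96.65% in D and 98.83% in E, and the sums were 0.743 to 0.885 of wild type. Of the 57 bins, 50 had a paternal share over 90%, with a median of 98.5%. Of the 7 bins that read at least 2 in the paternal deletion on the log2 scale, the bins from 66650001, 66750001, 66910001, 66940001 and 67050001 had shares of 46.29% to 50.67% and sums of 1.54 to 1.79. The other two had larger shares, 69.59% in the bin from 67090001 (sum 1.12) and 90.52% in the bin from 67060001 (sum 0.893). By the mean over probes, which was the main measure and which the brightest probes set, the shares were smaller. They were 79.56% in stretch B (sum 1.05) and 71.5% in D (sum 1.13). Opposite the 3′ part the mean share was 51.51% (sum 1.70), in A 53.59% (sum 1.61), in C 52.17% (sum 1.58) and in E 56.61% (sum 1.49). With sums toward 2, these last shares tell little of origin. Of the 57 bins, 27 had a mean share over 90% and 8 had one under 50%. Mean and median differed least in stretches B and D, where the wild types were brightest.

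On the plus strand of the 3′ part of Ube3a, the paternal share was 35.92% by the median over probes, with a sum of 1.20, and 44.3% by the mean, with a sum of 1.76. It was lowest in the bin from 66560001, at 23.19% (sum 1.16): the median signal there was 1.83 in the maternal deletion, 6.07 in the paternal deletion, 6.24 in WT1 and 7.45 in WT2, as multiples of the outside-locus level. By the median, the bin from 66570001 followed with 24.57%, and the other 3 bins of the 3′ part had 34.55% to 35.89%. By the mean, the bin from 66560001 had 29.53% (sum 1.38) and the bin from 66570001 had 45.54% (sum 1.81). The other 3 bins of the 3′ part had mean shares of 42.41% to 45.7% (sums 1.58 to 1.83). Where the sums are toward 2, these mean shares tell little of origin. The plus strand of stretches B to E had shares of 53.21% to 56.79% and sums of 1.63 to 2.06.

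**Figure D4:**
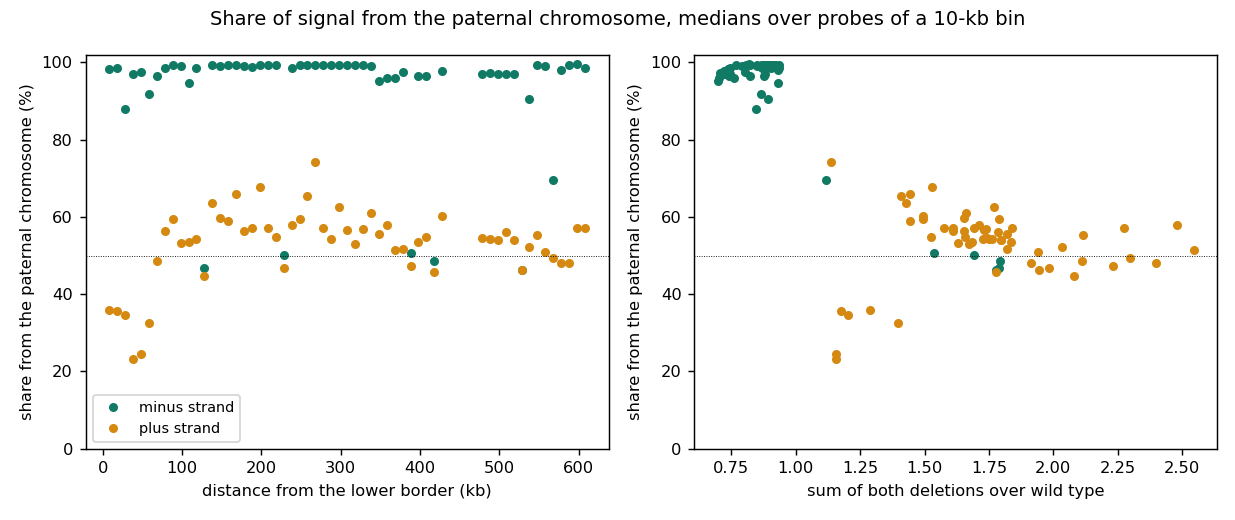
Share of signal from the paternal chromosome in percent (y axis, medians over the probes of a 10-kb bin of the deleted interval), by distance from the lower border in kb (left) and against the sum of both deletions as a multiple of wild type (right), minus strand in green and plus strand in orange, 1 point per bin, with the dotted line at 50%. Most minus-strand bins lie above 90% at sums below 1, the Ube3a end of the plus strand lies between 23% and 36% at sums nearer 1 than 2, and bins near 50% have sums toward 2.

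Outside the deletion both chromosomes still carry the sequence, and the signal does not tell from which of them the RNA came. On the plus strand, the spared 5′ part of Ube3a was higher than wild type in both deletions, and higher after maternal than after paternal inheritance. It read 1.57 in the maternal deletion, 1.34 in the paternal deletion, 0.98 in WT1 and 0.91 in WT2, so both deletions lay above both wild types. The difference between them was 0.22 (adjusted p = 0.0113, limma), against 0.07 between the wild types, and it rested on 2 of 4 bins: the bin from 66500001 differed by 0.27 and the bin from 66510001 by 0.33. It turned to -0.99 with a scale on all probes and to -0.74 with quantile normalization. It missed the threshold with the local background subtracted (0.27, adjusted p = 0.0582), with the negative controls subtracted (0.26, adjusted p = 0.0966), with a lower-flank scale (0.19, adjusted p = 0.0522) and with the median over probes (0.24, adjusted p = 0.0806), each in limma, where the range over all settings was 1.53e-11 to 0.953.

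Antisense RNA opposite the 5′ part also differed. It read 0.58 in the maternal deletion, 0.33 in the paternal deletion, 0.86 in WT1 and 0.93 in WT2, so both deletions were below both wild types and the paternal deletion was lower. The difference was 0.25 (adjusted p = 0.00543, limma), turning to -0.97 with a scale on all probes and to -0.39 with quantile normalization, and 3 of the 4 bins were called, with differences of 0.27, 0.37 and 0.44. The call of the region was lost in 6 of 18 settings, among them the scale on outside probes well above background (0.21, adjusted p = 0.118), negative controls subtracted (0.47, adjusted p = 0.0502) and the median over probes (0.38, adjusted p = 0.0665), each in limma. Inside the border the next bins differed by 1.63 and 1.68, so the parental difference of the antisense strand fell steeply at the deletion's end. In the bin from 66500001 the paternal deletion still read 0.04, with 97.88% of its probes well above background. Further out, in the 100 kb below the block (66383001 to 66483000), the minus strand differed by -0.03 and the plus strand by -0.08, and none of the 10 bins of either strand was called in limma, with 2 bins of each strand at an unadjusted p under 0.05.

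Past the upper border, at the Snrpn end of the deletion, plus-strand RNA was higher in both deletions than in wild type, and highest after maternal inheritance. This is the strand that Ube3a is read from, on the far side of the join that the deletion makes. The near upper flank (67147710 to 67300000) read 1.41 in the maternal deletion, 0.95 in the paternal deletion and 0.26 in both wild types. The maternal deletion was 0.46 above the paternal deletion (SE 0.074; adjusted p = 7.15e-06, limma), while WT1 minus WT2 was -0.003. The order turned with a scale on all probes (-0.75) and with quantile normalization (-0.19), and the difference was 0.74 with the local background subtracted. The probes there that were well above background made up 99.63% in the maternal and 98.88% in the paternal deletion, against 62.89% in WT1 and 62.56% in WT2. All 15 bins of the near upper flank were called higher in the maternal deletion, against 29.2% of all bins of the span. The largest difference was next to the border, in the bin from 67150001 to 67160000, with 1.65, 1.02, 0.03 and 0.04 and a difference of 0.63.

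The far upper flank (67300001 to 67700765) read 1.20 in the maternal deletion, 0.93 in the paternal deletion, 0.71 in WT1 and 0.70 in WT2. The order of the arrays was the same as nearby and the gaps were smaller, with a difference between the deletions of 0.27 (adjusted p = 0.00286, limma), which turned to -0.94 with a scale on all probes and to -0.20 with quantile normalization, and was 0.73 with the local background subtracted. Of its 40 bins 24 were called higher, and the 1 bin at the very end of the tile, with 12 probes, was called too. Over both flanks, 53 of the 56 plus-strand bins had the order maternal deletion, paternal deletion, wild types, from high to low. The 10 called bins with the largest differences outside the deletion all lay on this strand past the upper border and differed by 0.48 to 0.63. The minus strand of the same flanks differed by -0.01 and -0.10 and had no called bin (limma; 3 bins at an unadjusted p under 0.05, all in the far flank), and over the whole of the span outside the deletion no bin was called lower in the maternal deletion (limma; 8 minus-strand and 3 plus-strand bins were lower at an unadjusted p under 0.05).

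The rise over wild type became smaller with distance at first and did not vanish within the tile. In the first 50 kb past the border the maternal deletion was 1.35 and the paternal deletion 0.82 above the mean of the wild types. Between 100 and 150 kb they were 1.06 and 0.61 above it, and between 250 and 300 kb 0.38 and 0.16. Between 300 and 350 kb the rises were larger again, at 0.66 and 0.29, and between 500 and 550 kb they were 0.28 and 0.11. Between 150 and 200 kb, where WT2 read 1.51 and WT1 differed from it by -0.005, the deletions differed by 0.16 only. On the linear scale, with medians over probes as multiples of the outside-locus level, the near upper flank read 2.33 in the maternal deletion, 1.19 in the paternal deletion, 0.18 in WT1 and 0.17 in WT2. The rise was 2.15 after maternal and 1.02 after paternal inheritance, a ratio of 2.12, and it was 0.857 and 0.299 in the far upper flank, a ratio of 2.87. Over the 5′ part of Ube3a the ratio of the rises was 1.48. The difference between these ratios was not tested.

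**Figure D5:**
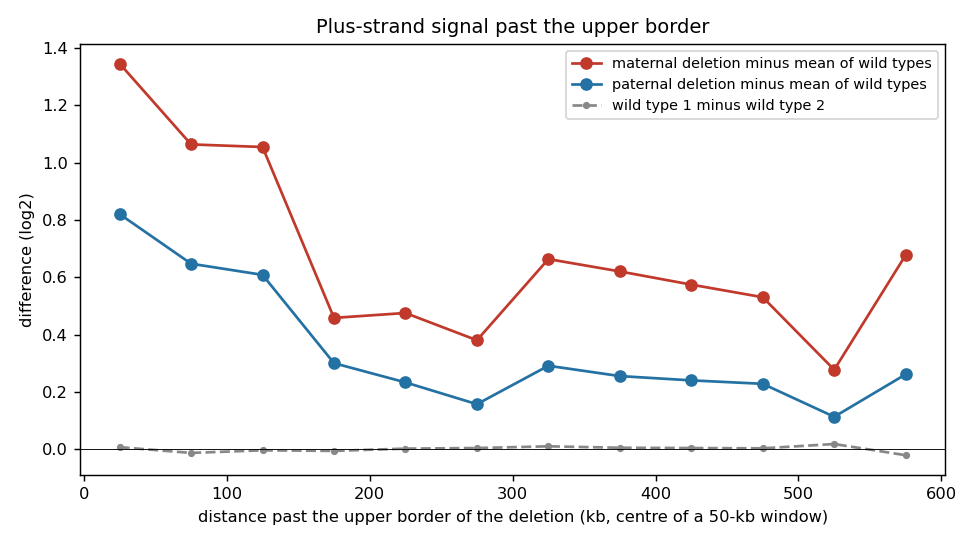
Plus-strand signal past the upper border of the deletion as a difference in mean log2 signal from the mean of both wild types (y axis) for the maternal deletion (red) and the paternal deletion (blue), and between the wild types (grey dashes), in windows of 50 kb by distance from the border (x axis, kb; the last window holds 58 probes). Both deletions lie above the wild types in every window, the maternal deletion above the paternal one, from 1.35 and 0.82 in the first window to 0.28 and 0.11 between 500 and 550 kb.

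Single probes gave the same division by strand. Of 49195 tested probes 16.9% were called higher in the maternal deletion and 1.28% lower (limma). Inside the deletion 6004 of 7151 minus-strand probes were called higher and 10 lower, while on the plus strand 180 of 6305 were higher and 323 lower. Of the 2394 tested probes outside the locus, 50 were called higher and 9 lower. The 10 of these with the largest differences were all higher in the maternal deletion, by 2.09 to 3.50. In 7 of them the paternal deletion read within 2-fold of the wild types and the maternal deletion stood above both. In these 7, the paternal deletion and both wild types read -1.47 to -0.78, below the scaling level. A probe well above background on 1 deletion array alone was tested. Such dim probes may thus have entered only through the maternal deletion, where they are high, which was not tested. In the other 3 the maternal deletion was within 2-fold of the wild types and the paternal deletion below both. An example of the first kind, a plus-strand probe at chr7:85733284-85733343 (mm9), read 2.09 in the maternal deletion, -1.41 in the paternal deletion, -1.47 in WT1 and -1.30 in WT2. One of the second kind, a minus-strand probe at chr16:32617172-32617231 (mm9), read 2.48, -0.92, 2.42 and 2.25. With 1 sample of each deletion, a difference at such a probe cannot be told apart from a difference between these animals or arrays.

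These calls rest on 1 degree of freedom, that of the wild-type pair, and on limma's pooling of the spread across regions or bins, which gave all regions the same SE. The regions and bins of 1 array share its labelling and scale, so the small p-values overstate the certainty. With both double-deletion arrays of the series (the maternal deletion together with a promoter deletion on the other chromosome) added as 1 group, no bin was called in limma, the lowest adjusted p over the bins was 0.151, and 86 bins passed an unadjusted p under 0.05, of which 55 were minus-strand bins inside the deletion. These 2 arrays differ from each other by a median of 1.64 over the minus-strand bins inside the deletion, where the wild types differ by 0.14, and the labels name different promoter deletions for them.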

How the data were processed

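Red-channel intensities of the single arrays, deposited by the authors as Agilent Feature Extraction output on a linear scale with no normalization between arrays, were the input. Per the file headers the probe positions are of build mm9 and the software was version 10.7.3.1 (10.9 in the submitters' processing notes). The median signal of a spot was used. With limma 3.58.1 (R 4.3.3), background was corrected by normexp (offset 50), and log2 values were scaled on the 75th percentile of probes outside positions 65790585 to 67800765 of chromosome 7. Control spots and spots marked as outliers by the scanner software were left out, and repeated spots were averaged by probe. The 49195 probes well above background in either deletion or in both wild types were tested.

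Region and bin means of the 3 groups were fitted with lmFit and eBayes, two-sided, with Benjamini-Hochberg adjustment over all 22 regions, all 356 bins or all probes and a threshold of 0.05. Shares used background-subtracted intensities on the linear scale, with the mean over tested probes as the main measure and the median as an alternative. Probes whose listed start is below their end were read as plus-strand RNA, and the others as minus-strand RNA. The authors' series matrix holds the same intensities of 18408 features times 1 factor per array (0.897 maternal deletion, 0.979 paternal deletion, 1 and 1.02 wild types). It was found from the values that these factors apply to the median signal, no further centring was seen, and the sources used here do not give how they were chosen. Its columns have medians of 104, 75.4, 89 and 86 in that order. It served as an alternative.

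Named features are all regions, the 5 bins of each strand inside the deletion with the largest and the 5 with the smallest difference, the 10 called bins outside it and the 10 called probes outside the locus with the largest absolute difference. Members, regions and borders were chosen with earlier results of these data known, and the borders were read on the same arrays. The bin fit was tested on simulated data, in which every array had the spread of the wild-type pair, independent between bins. That simulation cannot show whether the deletion samples vary as the wild types do. The double-deletion arrays entered only as alternatives, since their titles and genotype labels name opposite promoter deletions. PolyA arrays were not used. The marker lists could not be applied because the files name no genes.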

Additional observations from a re-analysis of the deposited data

Results flagged for a closer look

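For 13 of the 22 region and strand combinations, the effect of the same deletion differed with the parent it came from, by limma's test of that difference (adjusted p from 1.55e-25 to 0.0239). On the minus strand the maternal minus paternal difference was 0.249 in the 5′ part of Ube3a, 1.645 in the 3′ part, 1.625 in stretch A, 4.919 in B, 1.764 in C, 3.738 in D and 2.779 in E. On the plus strand it was 0.224 in the 5′ part, -0.679 in the 3′ part, -0.333 in stretch A, 0.197 in stretch B, 0.463 in the near and 0.272 in the far upper flank. Each rests on 1 sample per deletion, and their causes were not tested.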

How the results depend on the processing

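No paired analysis was possible because each deletion genotype has 1 sample, so the groups share fewer than 2 replicate numbers. The minus-strand differences of the deleted interval kept their sign under all settings tried, and so did the plus-strand differences of the 3′ part of Ube3a and stretch A. The scale decided the sign of the small differences. With the 75th percentile of all probes, the plus strand turned to -0.944 in the far and -0.753 in the near upper flank, -1.019 in stretch B, -1.205 in C, -1.123 in D, -1.208 in E and -0.992 in the 5′ part, and the minus strand of the 5′ part to -0.966. This scale pushed the whole span down, the lower flank included, to -1.242 on its minus and -1.268 on its plus strand. The called bins were then 57 lower inside on the plus strand and 0 higher outside on either strand. Over all settings, 0 to 238 bins outside the deletion were called lower. With the scale on all probes, 46351 single probes were called in place of 8960. The paternal share by the mean was then 24.52% in the 3′ part (plus) and 61.39% in stretch B (minus). Quantile normalization gave, from the far upper flank to the minus strand of the 5′ part in the same order, -0.202, -0.187, -0.328, -0.43, -0.44, -0.41, -0.742 and -0.388. The bins called lower inside on the plus strand and higher outside were 57 and 0 again. With the median of the outside probes the shares were 41.88% and 77.91%, with the median over probes 35.92% and 99.13%, and with a normexp offset of 0 the first was 43.52%.

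Adding the double deletions as 1 group cannot move a difference between single arrays. Only the spread changed, and the calls were lost. The adjusted p in limma was 0.0873 each for 1.645 (3′ part, minus), -0.679 (plus) and 4.919 (B, minus). It was 0.26 for 0.463 (near upper flank) and 0.522 for 0.224 (5′ part, plus). In every class 0 bins were called, and 0 single probes, against 86 bins at an unadjusted p under 0.05. Leaving out either wild type needs that fit and again cannot move the differences. The spread then comes only from the gap between both double-deletion arrays, for which the labels name different promoter deletions. The lone samples are assumed to vary like that pair, so this fit cannot show whether the calls depend on 1 wild type. With the wild-type difference taken off, the values were 1.693, -0.709, 4.721, 0.466 and 0.158. The 5′ part (plus) missed the threshold with the lower-flank scale (0.186), local background (0.268), negative controls (0.256) and the median over probes (0.237), and the 3′ part (plus) with the last (-0.518).

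Counts with 5-kb and 20-kb bins are of other numbers of bins, so by themselves they do not show a dependence on bin size. Bins called lower inside on the plus strand numbered 1 by the 2-fold rule, 2 with 20-kb bins and 3 with no filter, against 5 of 57. Bins called higher outside on the plus strand numbered 0 by the 2-fold rule, 25 with 20-kb and 74 with 5-kb bins, against 42 of 119 with 10-kb bins. On the minus strand outside they numbered 0 by the 2-fold rule, 5 with the lower-flank scale, local background or only probes above background on all 4 arrays, and 9 in the series matrix, against 3. Inside on the minus strand they numbered 28 with 20-kb bins, 108 with 5-kb bins and 33 in the series matrix, whose numbers of bins differ, against 56. The scale on 4 small tiled loci and the removal of saturated probes were added after seeing the data. Signal over background limits the size of folds in the paternal deletion where its probes are dim. On the minus strand 51.69% of its probes opposite the 3′ part stood well above background, against 95.82% in stretch B and 97.64% in D.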
